A study of Mus musculus with 8 samples.

Results

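All 8 plasma arrays of the study were used, with the 6 pools of drug-treated mice as 1 treated group against the 2 pools of control mice. The arrays were chosen by their titles, which name DOX (doxorubicin) for 3, IMB (imatinib) for 3 and CTRL for 2, and the miRNAs described are those whose 6 treated pools all lay above, or all lay below, both control pools. The mice were NMRI females aged 3 months. The IMB mice were given imatinib by mouth at 100 mg/kg each day for 9 days, and the CTRL mice received the solvents. The DOX mice had 4 intravenous doses of doxorubicin, each of 3 mg/kg, on alternate days. The labels do not say which solvent each control pool received. Every array was hybridised with RNA of 3 mice, isolated from 300 µl of their pooled plasma, with 3.1 µl of it carrying the Cy3 dye. Pools are biological replicates according to the labels, and with 2 controls each difference rests on a small sample of untreated plasma. The drugs differ in dose, route and schedule, so the comparison asks only which plasma miRNAs stand apart from solvent plasma after either drug.

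A miRNA is a short RNA that guides an Argonaute protein to messenger RNAs, mostly by pairing through its seed, the bases near its 5′ end, and lowers their translation or stability. Plasma carries miRNAs inside vesicles and bound to proteins, released from blood cells, vessel walls and solid organs, so a miRNA that is made in few tissues can point to its source better than one made everywhere. Doxorubicin is an anthracycline that poisons topoisomerase II and is known for damage to heart muscle, while imatinib inhibits the ABL, KIT and PDGF receptor tyrosine kinases. In plasma, release from more cells and more release per cell cannot be told apart.

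The sequences of the miRNAs the results turn on are shown first, 5′ to 3′ from RefSeq (GRCm38.p6), with the seed (bases 2 to 8) in capitals. A sequence was found for 31 of the 36 miRNAs whose groups did not overlap and for 298 of the 351 tested. These 7 lay above both controls in all 6 treated pools, and the last 3 of them share 1 seed:
miR-133b-3p: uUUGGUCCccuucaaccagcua
miR-7058-5p: uAGAGGGGaggugaccguggaagu
miR-5100: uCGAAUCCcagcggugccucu
miR-212-3p: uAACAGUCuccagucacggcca
miR-200b-3p: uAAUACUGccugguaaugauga
miR-200c-3p: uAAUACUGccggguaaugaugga
miR-429-3p: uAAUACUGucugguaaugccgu

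These 6 lay below both controls in all 6 treated pools, and no seed is shared among them:
miR-1224-5p: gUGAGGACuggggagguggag
miR-511-3p: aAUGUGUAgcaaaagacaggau
miR-3067-3p: cCAAGCGGcugcccugggagagg
miR-18a-5p: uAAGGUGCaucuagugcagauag
miR-128-3p: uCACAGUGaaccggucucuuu
let-7i-5p: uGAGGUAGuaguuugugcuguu

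Values below are log2 of the scaled signal per miRNA unless stated otherwise, a difference is treated minus control on that scale with its standard error (SE), and levels of different miRNAs are not compared. The array design covers 1881 mouse miRNAs. Detection reached 422 of them on 1 or more arrays and 296 on every array, and the 351 that were detected on all 6 treated or both control arrays were tested. Of these, 55 passed that filter through the control arrays alone. The number detected was 348.2 ± 34.1 (SD, n = 6 pools) in treated and 373.5 ± 26.2 (SD, n = 2 pools) in control plasma, a difference of -25.3 (exact 2-sided permutation p = 0.357, where 28 splits allow no p below 0.0714). The red cell miRNAs miR-451a and miR-16-5p were detected on all 8 arrays, as were miR-223-3p of myeloid cells and platelets and miR-126a-3p of endothelium. The 4 spike-in controls of the array gave no signal on any array, so total RNA input could not be set against them.

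No miRNA differed between treated and control plasma past the threshold: limma called 0 of 351 higher and 0 lower (0% in either direction), with a smallest adjusted p of 0.256. Before adjustment, 11 miRNAs (3.13%) were higher and 14 (3.99%) lower with a limma p under 0.05. A model with the drugs as separate groups, whose spread leaves out the difference between drugs, called 1 miRNA, miR-7058-5p (difference 1.90, limma adjusted p = 0.013). All 6 treated pools lay above both controls for 20 miRNAs (5.7% of those tested) and below both for 16 (4.56%), which is 10.3% in either direction. Of the 28 splits of the arrays into 6 and 2, 1 puts all treated pools above and 1 puts all below. That is a fraction of 0.0714 in either direction, so many of these miRNAs could lie apart without any difference. Of the 36 miRNAs that lay apart, 17 had an unadjusted limma p under 0.05. That p uses the same 8 values as the choice of the 36, so a raised share is built in. In 15 of the 36, 9 higher and 6 lower, the gap between the groups was wider than the difference between the 2 controls. All 20 higher and 12 of the 16 lower ones were detected on all 8 arrays. Over all 351, 136 differences lay above 0 and 215 below, with a median of -0.06. Over the 296 detected on all 8 arrays, 130 lay above 0 and 166 below, with a median of -0.04. Leaving out a control pool raised the counts without overlap to 42 higher and 52 lower of 355 tested (without CTRL 2). Without CTRL 1 they were 30 higher and 62 lower of 392 tested. A single control is easier to lie apart from, and the filter then admits any miRNA detected on it, so a rise is built in. Without IMB 1 there were 30 higher.

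**Figure D1:**
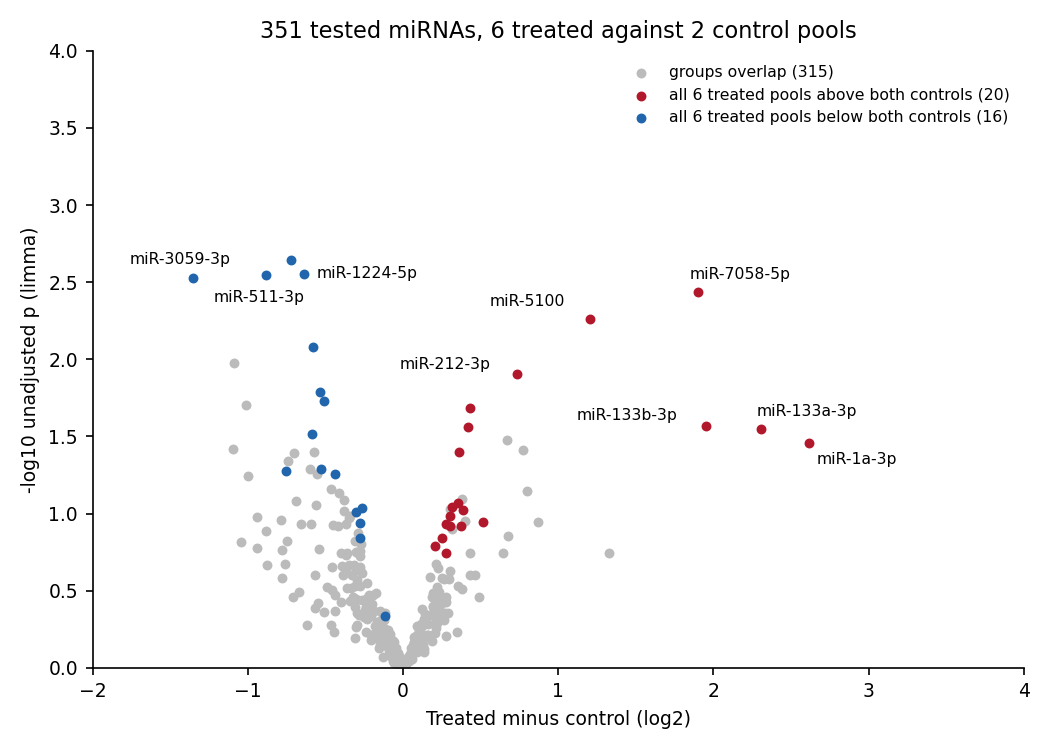
Treated minus control (log2, x axis) against -log10 of the unadjusted limma p (y axis) for the 351 tested miRNAs. Red points are the 20 miRNAs with all 6 treated pools above both controls, blue points the 16 with all 6 below, and grey points those whose groups overlap; the largest differences, 1.90 to 2.61, belong to miR-7058-5p and 3 muscle miRNAs, and no miRNA passed after adjustment.

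The largest differences belonged to muscle miRNAs, which are made almost only in heart and skeletal muscle. miR-1a-3p was at 5.90, 3.47 and 3.72 with DOX, 5.69, 7.83 and 3.99 with IMB, and 2.64 and 2.33 in the controls. Every treated pool was above both controls, with IMB 2 and DOX 1 the highest pool of each drug. The difference was 2.61 (SE 1.05, 6.12-fold, limma adjusted p = 0.59). miR-133a-3p was at 4.85, 2.92 and 3.99 with DOX, 4.86, 6.50 and 2.72 with IMB, and 2.01 and 1.99 in the controls, a difference of 2.31 (SE 0.88, limma adjusted p = 0.59). None of its probes was well above background on all arrays. miR-133b-3p, a near-copy of miR-133a-3p encoded elsewhere, so that the array may not fully separate them, was at 5.73, 4.41 and 5.26 with DOX, 5.79, 7.42 and 4.14 with IMB, and 3.34 and 3.67 in the controls. Its difference was 1.95 (SE 0.74, 3.87-fold, limma adjusted p = 0.59). In all 3 the treated pools spread over more than the controls did, with SDs of 1.69, 1.41 and 1.17 over the 6 treated pools, and IMB 2 was the highest. Without IMB 2 the differences were 2.07, 1.87 and 1.56 in the same order.

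Of the 9 miRNAs in the muscle list, 4 were tested, 0 passed in limma and 3 lay above both controls in all 6 treated pools (beside 5.7% of all tested miRNAs). The median difference of the 4 was 2.13, beside -0.06 for all tested miRNAs. The fourth, miR-486a-5p, is also abundant in red cells and differed by -0.15. The myosin-encoded miR-208a-3p, miR-208b-3p and miR-499-5p were not detected on any array, and miR-206-3p of skeletal muscle was detected on 1. The red cell list, with 9 tested members, had 0 without overlap and a median of -0.21, also over the 8 that were detected on all 8 arrays, and its summed signal ranged from 13.09 to 14.23 in treated and 13.47 to 14.18 in control pools. With normexp background correction the differences of miR-1a-3p, miR-133a-3p and miR-133b-3p were 1.12, 0.75 and 0.99. This correction adds an offset of 50 to every spot, so differences of dim miRNAs shrink. With it the median of all 351 differences was 0.09.

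**Figure D2:**
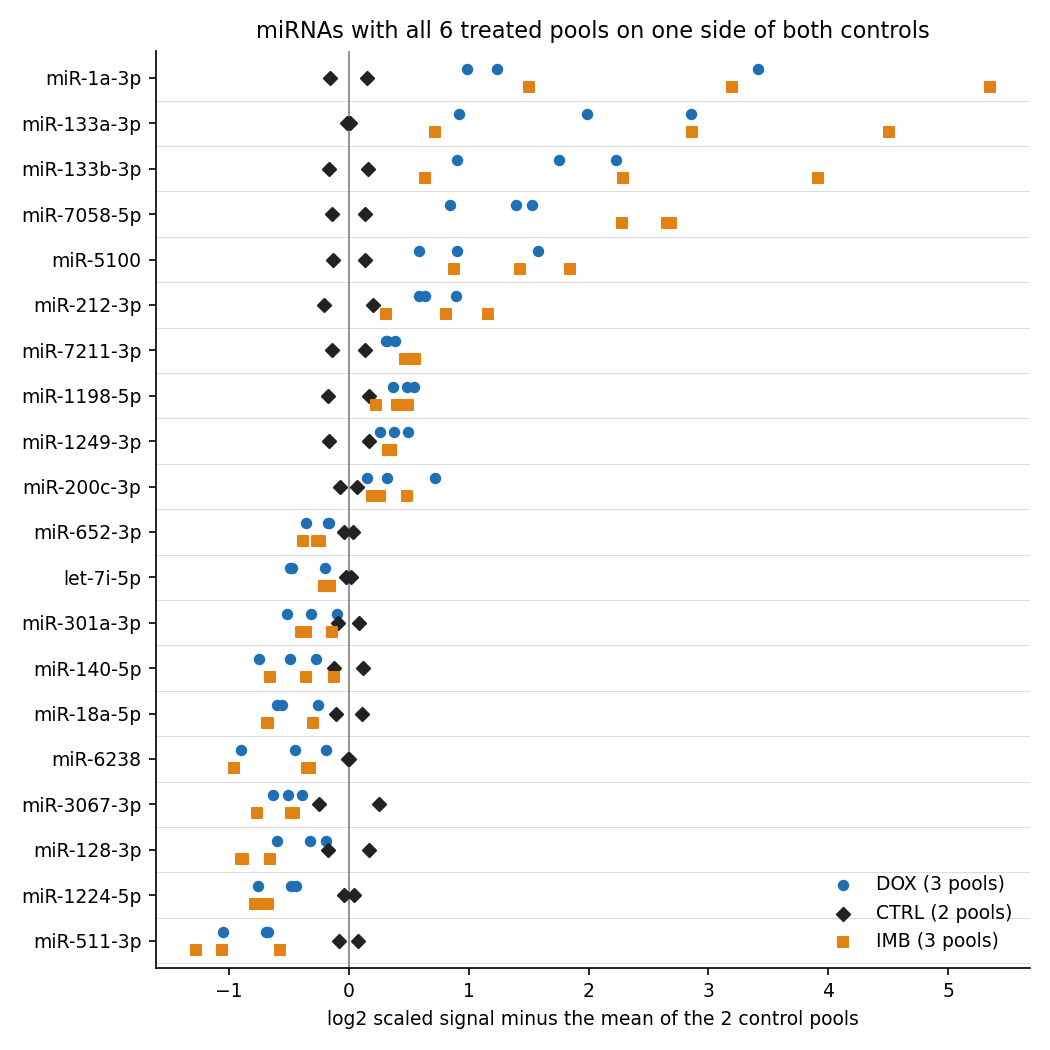
Log2 scaled signal of each pool minus the mean of both controls (x axis) for 10 miRNAs with all treated pools above and 10 with all treated pools below both controls (y axis). Blue circles are the 3 DOX pools, orange squares the 3 IMB pools and black diamonds the 2 controls; muscle miRNAs spread widely among treated pools, miR-7058-5p separates by drug, and for miR-140-5p and miR-301a-3p the nearest treated pool almost touches a control.

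Among miRNAs above both controls in all 6 treated pools, a pair of sparsely studied ones stood next in size. miR-7058-5p, encoded within Lat, the gene of a T cell receptor adaptor, was at 4.21, 4.90 and 4.76 with DOX, 5.64, 6.05 and 6.01 with IMB, and 3.50 and 3.23 in the controls. Both drugs lay above the controls, IMB further than DOX. The difference was 1.90 (SE 0.48, 3.73-fold, limma adjusted p = 0.26), and DOX minus control was 1.26 against 2.54 for IMB minus control, with the same 2 controls in both. With normexp background correction the treated minus control difference of miR-7058-5p was 0.90. miR-5100, encoded within Mief2, a gene of mitochondrial fission, was at 10.72, 9.72 and 10.04 with DOX, 10.02, 10.98 and 10.56 with IMB, and 9.27 and 9.00 in the controls. The lowest treated pool, DOX 2, was 0.46 above the higher control. The difference was 1.21 (SE 0.33, 2.31-fold, limma adjusted p = 0.32). Both of its probes lay above the controls in all 6 treated pools, with differences of means of 0.98 and 1.28. Both miRNAs are in a list of 21 that are bright on such arrays or whose annotation is doubtful, of which 20 were tested, 3 lay above and 1 below both controls in all treated pools (beside 5.7% and 4.56% of all tested), and the median difference was 0.05.

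miR-212-3p, which is induced by CREB in neurons and other cells, was at 4.35, 4.30 and 4.61 with DOX, 4.03, 4.53 and 4.88 with IMB, and 3.51 and 3.92 in the controls. Its difference was 0.73 (SE 0.23, 1.66-fold, limma adjusted p = 0.48), with IMB 1 only 0.11 above CTRL 2, and was 0.38 with normexp background correction. miR-132-3p is encoded next to it and has the same seed, AACAGUC. It was at 2.16, 2.25 and 2.29 with DOX, 3.44, 2.51 and 3.09 with IMB, and 3.16 and 3.00 in the controls, a difference of -0.46 with groups that overlap.

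In the epithelial list, whose miR-200 members repress ZEB1 and ZEB2 and so keep cells epithelial, 7 of 7 members were tested, 0 passed in limma and 3 lay above both controls in all 6 treated pools (beside 5.7% of all tested miRNAs), with a median difference of 0.36. Under the 7 alternatives of signal, background and scaling, miR-200b-3p stayed above both controls in 5, miR-429-3p in 3 and miR-200c-3p in 1. These 3 were the only tested miRNAs with a known sequence that have the seed AAUACUG. miR-200b-3p was at 5.05, 5.10 and 5.49 with DOX, 5.06, 4.76 and 4.82 with IMB, and 4.63 and 4.69 in the controls. The DOX pools made up 2 of its 3 highest values. miR-429-3p, encoded beside it, was at 4.28, 4.41 and 4.77 with DOX, 4.20, 3.99 and 4.04 with IMB, and 3.83 and 3.98 in the controls, so that the lowest IMB pool and the higher control differed by 0.005. miR-200c-3p, from another locus, was at 1.93, 2.10 and 2.50 with DOX, 2.27, 1.98 and 2.04 with IMB, and 1.71 and 1.85 in the controls. The differences were 0.38 (SE 0.20), 0.38 (SE 0.22) and 0.36 (SE 0.19), each with a limma adjusted p of 0.68. Both probes of miR-200b-3p and both of miR-429-3p lay above the controls in all treated pools. Their treated minus control differences of means were 0.39 to 0.46. miR-200c-3p had no probe well above background on all arrays. The cluster partners of these miRNAs, miR-200a-3p and miR-141-3p, with another seed, differed by 0.25 and 0.46 and overlapped the controls. The skin miRNAs miR-205-5p and miR-203-3p differed by 0.28 and -0.04 and also overlapped. The drugs went apart for miR-205-5p, with DOX minus control at 1.02 and IMB minus control at -0.46. limma called it between the drugs. Without scaling, miR-200c-3p turned to -0.01 and miR-200b-3p and miR-429-3p were at 0.01 and 0.004. With normexp background correction miR-200b-3p was at 0.25, miR-429-3p at 0.24 and miR-200c-3p at 0.18. The treated minus control difference of miR-200c-3p was 1.98 with quantile normalization and 1.83 in the authors' deposited table.

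Among the other miRNAs above both controls, miR-7211-3p was at 3.06, 3.00 and 2.99 with DOX, 3.21, 3.23 and 3.15 with IMB, and 2.81 and 2.54 in the controls (difference 0.43, SE 0.15). miR-1198-5p was at 3.06, 2.88 and 3.00 with DOX, 2.75, 3.01 and 2.92 with IMB, and 2.35 and 2.68 in the controls (difference 0.42, SE 0.16). miR-1249-3p was at 4.38, 4.15 and 4.26 with DOX, 4.24, 4.21 and 4.24 with IMB, and 3.72 and 4.05 in the controls (difference 0.36, SE 0.15). These 3 varied little among treated pools, with SDs of 0.11, 0.11 and 0.07, and the controls were 0.28, 0.34 and 0.33 apart. miR-378a-3p, of metabolically active tissue, ranged from 4.34 to 5.54 in treated pools (median 4.63), with IMB 2 the highest, against 4.27 and 4.17 in the controls (difference 0.51, SE 0.29). After normexp background correction miR-7211-3p was at 0.20, miR-1198-5p at 0.22, miR-1249-3p at 0.22 and miR-378a-3p at 0.33. Without CTRL 1, miR-1198-5p was at 0.25 and miR-1249-3p at 0.19. The remaining 7, all outside the rule for named miRNAs and listed here to account for every member, were miR-125a-3p (0.32), miR-6538 (0.30), miR-1934-3p (0.30), miR-7018-5p (0.28), miR-5130 (0.27), miR-211-3p (0.25) and miR-30c-5p (0.20), and without scaling all 7 lay below 0, as did miR-1249-3p. All 4 probes of miR-125a-3p lay above the controls, with differences of means of 0.33 to 0.37, while its main arm miR-125a-5p differed by 0.07. miR-30c-5p, of a family of 6 tested members with a median of 0.10, was the only one of them without overlap. Among all tested miRNAs 5.7% lay above both controls. Its neighbour miR-30e-5p differed by -0.07.

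Among miRNAs below both controls and detected on all 8 arrays, miR-1224-5p had the smallest limma p. This miRNA, spliced out of an intron of Vwa5b2, was at 9.87, 9.91 and 9.60 with DOX, 9.65, 9.57 and 9.68 with IMB, and 10.31 and 10.39 in the controls. Its highest treated pool was 0.40 below the lower control, against 0.08 between the controls. The difference was -0.64 (SE 0.16, 1.56-fold lower, limma adjusted p = 0.26). With normexp background correction it was -0.69 and passed (limma adjusted p = 0.032). Both of its probes were lower in treated plasma, by -0.67 and -0.29, and 1 of them without overlap.

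miR-511-3p, encoded in Mrc1, the gene of the macrophage mannose receptor, was at 2.43, 2.08 and 2.45 with DOX, 2.56, 1.85 and 2.07 with IMB, and 3.20 and 3.05 in the controls. Its gap of 0.49 also exceeded the 0.16 between the controls, and the difference was -0.89 (SE 0.22, 1.85-fold lower, limma adjusted p = 0.26). It had no probe well above background on all arrays. With normexp background correction, whose offset shrinks differences of dim miRNAs, the difference was 0.11, beside a median of 0.09 over all tested miRNAs. With the processed spot signal averaged per probe and miRNA, the difference of miR-511-3p was -0.28. The groups overlapped in both of these settings. The myeloid list had 7 tested members, all with differences below 0, a median of -0.33, 0 past the threshold in limma and 0 without overlap. The lymphocyte list also had 7, with 0 past the threshold and 0 without overlap. The 6 of them that were detected on all 8 arrays were below 0, with a median of -0.36, and miR-181a-5p passed the filter through the controls alone.

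miR-3067-3p was at 4.50, 4.61 and 4.37 with DOX, 4.52, 4.24 and 4.55 with IMB, and 5.25 and 4.75 in the controls (difference -0.54, SE 0.18), which were themselves 0.50 apart. miR-128-3p, abundant in brain, was at 4.02, 4.43 and 4.30 with DOX, 3.97, 3.72 and 3.74 with IMB, and 4.45 and 4.79 in the controls (difference -0.59, SE 0.23). The IMB pools were the 3 lowest, and DOX 2 lay 0.02 below CTRL 1. With normexp background correction miR-128-3p was at -0.17, and miR-3067-3p at -0.21, with -0.29 for miR-3067-3p without CTRL 1. The brain list had 3 of 8 members tested. Of these, miR-219a-5p passed the filter through the controls alone, and the 2 detected on all 8 arrays, miR-128-3p and miR-132-3p, had a median of -0.52, while miR-124-3p and miR-9-5p, the most specific to neurons, were not detected on any array.

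miR-18a-5p belongs to the miR-17 cluster, which promotes cell division. It was at 3.41, 3.45 and 3.75 with DOX, 3.70, 3.33 and 3.32 with IMB, and 4.11 and 3.89 in the controls (difference -0.51, SE 0.18, limma adjusted p = 0.56). Its 6 tested neighbours within 10000 bases differed by -0.06 to -0.35 and each overlapped the controls. All 11 tested members of the miR-17 list and its paralogues had differences below 0, with a median of -0.28, 0 passed in limma and 1 was without overlap (beside 4.56% below both controls among all tested). miR-18a-5p was at -0.07 with normexp background correction. let-7i-5p, of a family that holds back growth genes, was at 6.91, 6.93 and 7.20 with DOX, 7.24, 7.24 and 7.19 with IMB, and 7.41 and 7.38 in the controls (difference -0.28, SE 0.16). Its seed GAGGUAG is shared by 9 tested miRNAs, of which let-7i-5p was the only one without overlap (beside 4.56% below both controls among all tested). The 7 detected on all 8 arrays had a median difference of -0.12, with 2 above and 5 below 0.

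miR-6238 was at 2.87, 2.61 and 2.16 with DOX, 2.10, 2.71 and 2.73 with IMB, and 3.06 and 3.06 in the controls (difference -0.53, SE 0.23). miR-140-5p, known from cartilage, was at 4.30, 4.56 and 4.77 with DOX, 4.92, 4.39 and 4.69 with IMB, and 5.17 and 4.92 in the controls (difference -0.44, SE 0.20). miR-301a-3p, encoded in Ska2, was at 4.42, 4.23 and 4.64 with DOX, 4.60, 4.38 and 4.34 with IMB, and 4.83 and 4.65 in the controls (difference -0.30, SE 0.16). miR-652-3p, encoded in Tmem164, was at 4.73, 4.54 and 4.72 with DOX, 4.51, 4.66 and 4.63 with IMB, and 4.94 and 4.86 in the controls (difference -0.26, SE 0.14). The opposite arm, miR-652-5p, differed by 0.38 and overlapped. After normexp background correction miR-140-5p was at -0.15, miR-301a-3p at -0.08, miR-652-3p at -0.063 and miR-350-3p at -0.066. Outside the rule for named miRNAs, miR-350-3p (-0.27), miR-7045-5p (-0.11), miR-7037-5p (-0.75), miR-7a-1-3p (-0.72) and miR-6240 (-0.58) also lay below both controls. The last 3 were detected on all control arrays but on 3, 1 and 1 of the 6 treated arrays, so they entered the tests only through the group where they were high. miR-3059-3p was detected on both control arrays (2.88 and 1.30) and on no treated array, where its values stand at the floor set on low signals, so no fold is given. Its difference was -0.46 without CTRL 1 and 0.055 with normexp background correction.

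Several of the 36 rested on narrow gaps. The nearest treated pool and control differed by 0.003 in miR-140-5p, 0.004 in miR-350-3p, 0.005 in miR-429-3p, 0.008 in miR-301a-3p and 0.010 in miR-7018-5p. At the other end stood miR-1a-3p with a gap of 0.83, miR-133a-3p and miR-7058-5p with 0.71 each and miR-511-3p with 0.49, among miRNAs detected on all 8 arrays. At the level of single probes, 27 of the 36 miRNAs had 1 or more probes well above background on all arrays, 46 probes in all. All 46 differed in the direction of their miRNA and 34 lay apart from both controls. Probes of a miRNA read the same RNA and are part of its total signal. Among all 454 such probes on the array, 6.83% lay above and 2.20% below both controls in all treated pools.

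The base composition of higher and lower members was described without a test. Median GC content of the mature sequence was 58.7% for the 16 higher miRNAs with a sequence and 47.6% for the 15 lower ones, beside 54.5% for the 298 tested miRNAs with one, and the median length was 22 bases in all 3 sets. Some of the 15 passed the filter through the controls alone. The 11 lower ones detected on all 8 arrays had a median of 43.5%, beside 54.5% for all 257 such miRNAs with a sequence. The ranges were wide, 36.4% to 94.7% and 36.4% to 76.2%. Of the 31 miRNAs without overlap that have a position in RefSeq, 21 lie within a gene, and 8 have a tested neighbour or opposite arm within 10000 bases. These counts were not made for all tested miRNAs, so they set no trait of the 31 apart. Only miR-200b-3p and miR-429-3p had a partner that also lay apart from the controls in the same direction, each being the other's partner.

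The drugs were then set against each other, which does not use the control values for the difference itself. limma called 5 of 351 miRNAs between IMB and DOX, 3 higher with IMB (0.855%) and 2 lower (0.57%). Of the 36 miRNAs that lay apart from the controls, 1 was among them: miR-7058-5p, 1.28 higher with IMB (SE 0.22, limma adjusted p = 0.036). For miR-1a-3p, IMB minus DOX was 1.47 (SE 0.99, limma adjusted p = 0.62), for miR-5100 0.36 (SE 0.32) and for miR-1224-5p -0.16 (SE 0.14). A p that misses the threshold does not show that the drugs act alike. Side by side, DOX minus control and IMB minus control were 1.88 and 3.35 for miR-1a-3p, 1.03 and 1.39 for miR-5100, 0.55 and 0.22 for miR-200b-3p, -0.56 and -0.72 for miR-1224-5p, -0.80 and -0.97 for miR-511-3p, and -0.37 and -0.81 for miR-128-3p. Both differences share the 2 controls.

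**Figure D3:**
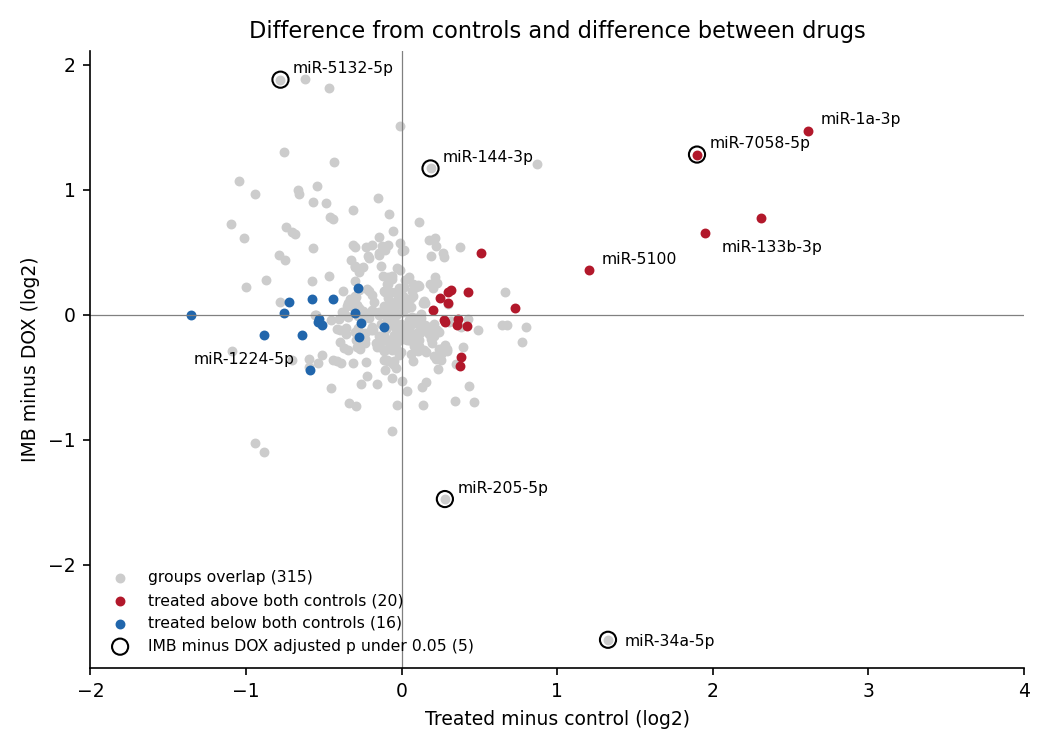
Treated minus control (log2, x axis) against IMB minus DOX (log2, y axis) for 351 miRNAs. Red and blue points are those with all 6 treated pools above or below both controls, and open circles mark the 5 miRNAs that limma called between the drugs; miR-7058-5p is the 1 miRNA that is both red and circled, while miR-34a-5p, miR-205-5p, miR-144-3p and miR-5132-5p differ by drug and overlap the controls.

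Taking the drugs as 1 group averaged over miRNAs that went apart. miR-34a-5p, a target of p53, was at 5.42, 5.55 and 6.01 with DOX, 3.55, 2.74 and 2.88 with IMB, and 3.12 and 2.94 in the controls. Its treated minus control difference was 1.33 (limma adjusted p = 0.74), with DOX minus control at 2.63 and IMB minus control at 0.03, and IMB was 2.60 below DOX (SE 0.26, limma adjusted p = 0.0018). miR-144-3p, made in red cell precursors, was at 5.54, 5.30 and 5.60 with DOX, 6.68, 6.60 and 6.65 with IMB, and 5.99 and 5.76 in the controls, so every DOX pool was below and every IMB pool above both controls. IMB was 1.17 above DOX (SE 0.15, limma adjusted p = 0.0071). The same split held for miR-7044-5p, 0.52 higher with IMB, and the opposite one for miR-126a-5p of endothelium, 0.72 lower with IMB, but limma did not call either (adjusted p = 0.20 and 0.095). For these 3 the treated minus control differences were 0.19, 0.02 and -0.03. miR-374c-5p split by drug in the same way as miR-144-3p. It was at 0.73, 0.73 and 1.80 with DOX, 2.51, 3.04 and 2.26 with IMB, and 1.85 and 1.87 in the controls, and lies outside the rule for named miRNAs, since it was not detected on 2 DOX arrays. limma did not call it between the drugs (1.51 higher with IMB, adjusted p = 0.087).

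All 8 arrays lie on 1 slide in 2 rows, each with 3 treated pools and 1 control. Row 1 holds DOX 1, DOX 2, IMB 1 and CTRL 1, and row 2 DOX 3, IMB 2, IMB 3 and CTRL 2, so each row gives a treated minus control difference that shares no array with the other. The rows differ in their mix of drugs, so a change between rows cannot be told apart from one between drugs. Across the 351 miRNAs, which are not independent of each other, the differences of the rows had a Pearson r of 0.43 and a Spearman rho of 0.24, as a description, and 195 (55.6%) had the same sign in both. All 3 treated pools lay above their own row's control in both rows for 25 miRNAs, below it in both for 32, and above in 1 row and below in the other for 27. miR-1a-3p differed by 2.38 in row 1 and 2.85 in row 2, miR-133a-3p by 2.20 and 2.41, and miR-133b-3p by 1.97 and 1.94. miR-7058-5p differed by 1.42 and 2.38, miR-5100 by 0.89 and 1.53, and miR-1224-5p by -0.50 and -0.78. These miRNAs were chosen for 6 treated pools on 1 side of both controls, which fixes their sign in each row, so the rows are no independent support for it. miR-7018-5p differed by 0.46 in row 1 and 0.10 in row 2, and miR-3059-3p by -2.15 and -0.57. With the row as a block, limma called 0 of 351 in either direction.

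**Figure D4:**
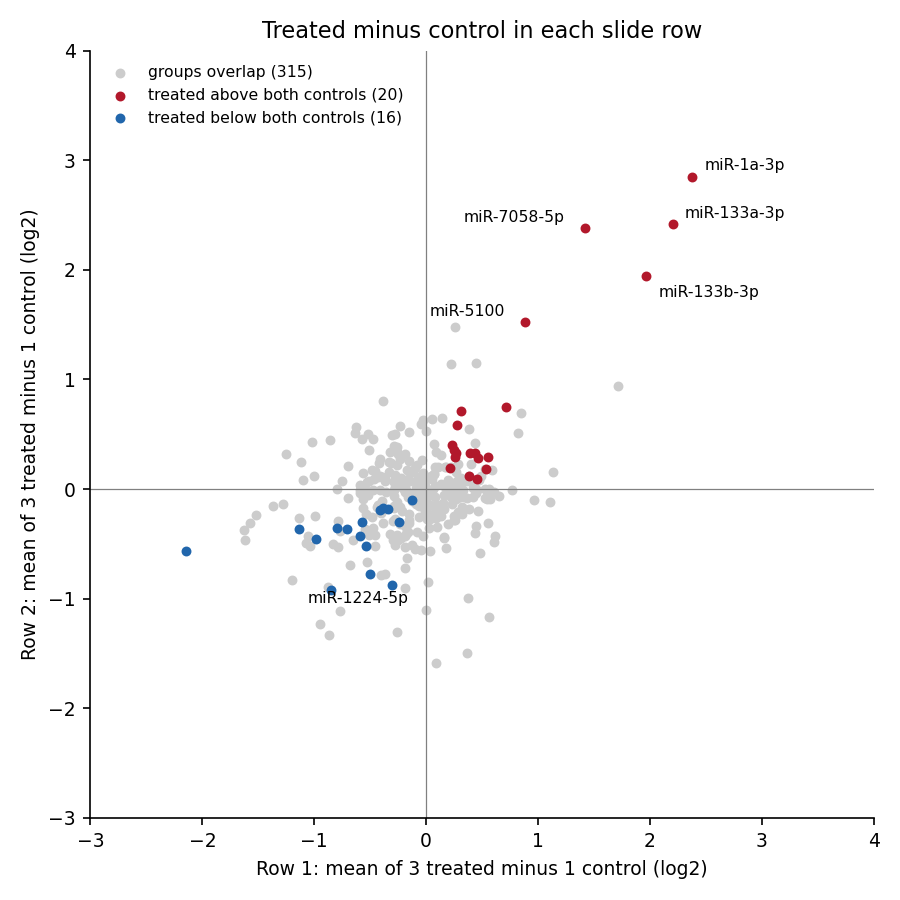
Mean of 3 treated pools minus the control of the same slide row (log2), row 1 on the x axis and row 2 on the y axis, for 351 miRNAs. Red and blue points are those with all 6 treated pools above or below both controls; their sign in both rows is fixed by that choice, and 195 of the 351 points have the same sign in both rows.

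Red cell content was read from an index, log2 of miR-451a, the most abundant red cell miRNA, minus log2 of miR-23a-3p, which is known to change little when red cells break. It was 3.47 ± 0.72 (SD, n = 6 pools) in treated and 3.51 ± 0.47 (SD, n = 2 pools) in control plasma, a difference of -0.04 (exact 2-sided permutation p = 1). The mean hides a split by drug, 2.85 with DOX and 4.09 with IMB. For miR-451a, DOX minus control was -0.48 and IMB minus control 0.32. For miR-23a-3p they were 0.18 and -0.25, so part of the split comes from the reference and not from miR-451a. The treated minus control difference of the index was -0.60 in row 1 and 0.51 in row 2. As row 1 holds more DOX and row 2 more IMB pools, row and drug cannot be told apart here. With the index as a covariate, miR-1a-3p differed by 2.68, miR-7058-5p by 1.94, miR-5100 by 1.22 and miR-1224-5p by -0.64, and limma called 0 of 351 in either direction.

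Scaling between arrays set how many miRNAs lay apart from the controls. The 75th percentile of detected signals was lower in treated plasma by 0.37 on the log2 scale before scaling (exact 2-sided permutation p = 0.5), with 59.3 to 166 signal units in treated and 88.1 and 134 in control pools. Without scaling the median of all 351 differences was -0.43, and 3 miRNAs lay above and 6 below both controls. Scaling to the median gave 14 higher and 27 lower, scaling to a pair of reference miRNAs (miR-24-3p with miR-23a-3p) 18 and 7, and normexp background correction 13 and 3. The share of higher ones among those without overlap was 55.6% in the main setting, 33.3% without scaling, 34.1% with the median, 72.0% with the reference miRNAs, 81.2% with normexp and 45.7% in the authors' deposited table. Of the 36 miRNAs, 3 kept all treated pools on the same side of both controls in all 7 alternatives of signal, background and scaling: miR-1a-3p, miR-133a-3p and miR-133b-3p. miR-7058-5p, miR-5100, miR-125a-3p and miR-1224-5p did so in 6, all but the one without scaling. No miRNA of the 36 lay wholly on the opposite side in any of the 7.

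**Figure D5:**
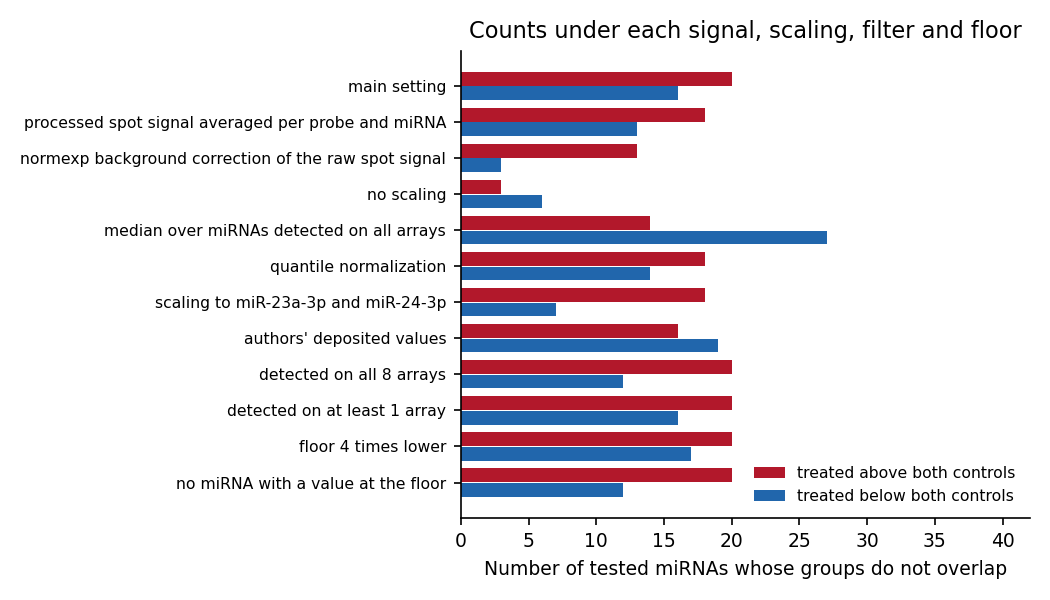
Number of tested miRNAs (x axis, from 0) with all 6 treated pools above (red bars) or below (blue bars) both controls under each signal, scaling, filter and floor (y axis). The main setting gave 20 and 16, no scaling 3 and 6, and median scaling 14 and 27.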

How the data were processed

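Plasma RNA was measured on 8 one-colour Agilent miRNA arrays. The authors' scanner files give linear spot intensity, for which the submitters' processing notes name Agilent Feature Extraction 11.5.1.1, and, per the file headers, a total signal per miRNA with a detection flag. The authors' deposited log2 table orders the detected miRNAs of an array like that signal, and across arrays its 323 highest values coincide, so it appears quantile normalized; no source used here states how it was made, and its medians ran from -3.32 to -3.20. No spot was saturated. The number of arrays limits the precision.

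The total signal was divided by each array's 75th percentile over the miRNAs detected on all 8 arrays and brought back to a common level, floored at 1.66 (log2 0.73, from the 1st percentile of detected signals) and put on the log2 scale. The 351 miRNAs were tested by limma's moderated statistic (limma 3.58.1, R 4.3.3; 2-sided, Benjamini-Hochberg over all 351, threshold 0.05), with 6 treated and 2 control arrays. The SD over treated pools includes any difference between drugs. Drug against drug came from a 3-group design on all arrays. Single values of each array were compared by an exact permutation test. Lists are described by counts and medians. The steps were tested on simulated data. Figures were drawn with matplotlib 3.10.9.

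Named were, per direction, up to 10 miRNAs past the threshold without overlap, filled up by smallest unadjusted p among those without overlap and detected on all 8 arrays; miRNAs detected on all 8 arrays and on opposite sides of the controls by drug; those detected in 1 group only; up to 4 of the brightest tested members of each list; and a short fixed set. The members and lists were chosen with earlier results of these data known. Alternatives covered the signal, background (normexp on the median spot signal), scaling, filter, floor, model, blocks, the red cell index, the authors' table and each array left out in turn. The normexp offset was 50.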

Additional observations from a re-analysis of the deposited data

Results flagged for a closer look

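In 50 sets of 6 treated pools (the miRNAs named and the values per array), 5 had a highest or lowest pool that stood apart by Dixon's criterion at 95%, where chance gives about 1 set in 20. The gap divided by the range was 1.0 for miR-7a-1-3p and 1.0 for miR-6240, where IMB 2 was the only treated pool in which either was detected. With the other 5 at the floor the ratio is 1.0 by construction, so it is no sign of an outlying pool. It was 0.628 for miR-378a-3p, with IMB 2 the highest, 0.707 for miR-211-3p, with IMB 1 the highest, and 0.919 for miR-7045-5p, with IMB 1 the lowest.

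Among the miRNAs checked here, the drugs differed in limma for miR-7058-5p (IMB minus DOX 1.28), miR-144-3p (1.17) and miR-34a-5p (-2.60). miR-205-5p and miR-5132-5p, which limma also called between the drugs, were outside this check. For miR-126a-5p (-0.72) and miR-7044-5p (0.52) every pool of 1 drug lay above both controls and every pool of the other below, and limma did not call the difference between the drugs (adjusted p = 0.095 and 0.20).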

How the results depend on the processing

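limma's count of calls between treated and control plasma, 0 higher and 0 lower, became 1 higher with the 3-group design (miR-7058-5p) and 1 lower with normexp background correction (miR-1224-5p, -0.69), with the authors' deposited values (miR-291a-5p, above the floor in CTRL 2 alone) or with a floor 4 times lower (miR-3059-3p). Leaving out 1 treated array gave 0 calls in either direction. With a control left out, 1 control remains and sets the filter alone, so calls are not given. The counts without overlap were 3 higher and 6 lower without scaling, and 13 and 3 with normexp; the lower count was 27 with median scaling and 7 with scaling to reference miRNAs (miR-24-3p with miR-23a-3p). The 75th percentile over all miRNAs is the constant of undetected ones, so this alternative equals no scaling. Leaving out 1 treated array gave 21 to 30 higher and 16 to 22 lower. Leaving out a control gave up to 42 higher and 62 lower, a rise that is built in with 1 control. Between drugs, IMB lower than DOX was 1 without scaling and 1 with quantile normalization, in place of 2; leaving out 1 array gave 2 to 11 higher (11 without IMB 1) and 1 to 2 lower.

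The replicate numbers are shared by the groups, but the deviations of the 7 same-numbered pairs correlated by -0.05 to 0.30 and 4 of 8 arrays correlated best with their own number, so the numbers were not taken as pairs. With the replicate block limma called 0 higher and 0 lower in treated plasma, and 2 and 2 between drugs; miR-451a turned from -0.08 to 0.0029.

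The other changes of sign, with no call on either side, were these. Without scaling the differences were -0.011 for miR-1249-3p, -0.015 for miR-200c-3p, -0.056 for miR-125a-3p, -0.070 for miR-6538, -0.10 for miR-5130, -0.071 for miR-1934-3p, -0.12 for miR-211-3p, -0.17 for miR-30c-5p, -0.10 for miR-7018-5p, -0.19 for miR-144-3p, -0.36 for miR-7044-5p and -0.22 for miR-126a-3p. With normexp they were 0.10 for miR-7a-1-3p, 0.11 for miR-511-3p, 0.055 for miR-3059-3p, 0.11 for miR-6240, 0.062 for miR-6238, 0.10 for miR-7037-5p and 0.053 for miR-126a-5p. The median over all tested miRNAs was 0.09 with normexp, whose offset shrinks differences of dim miRNAs. miR-126a-5p was 0.020 with the reference miRNAs, miR-7044-5p -0.058 with median scaling, and miR-23a-3p 0.10 with quantile normalization, 0.010 with the reference miRNAs and 0.10 in the authors' values. Leaving out 1 array also turned the sign of values near 0, with ranges of -0.100 to 0.094 for miR-126a-5p, -0.068 to 0.094 for miR-7044-5p, -0.45 to 0.29 for miR-451a, -0.094 to 0.057 for miR-23a-3p, -0.100 to 0.042 for miR-24-3p and -0.31 to 0.19 for miR-223-3p. Without scaling, each miRNA above the floor shifts by the same -0.37, the difference in the 75th percentile, so small positive differences turn by construction. The cause of the other changes was not tested.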

Other observations

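Lists not described above are given here by their counts and medians, as descriptions, beside a median of -0.06 over all 351 tested miRNAs. No member of these lists passed in limma, and 1, miR-652-3p of the X-linked list, lay apart from both controls in all 6 treated pools (beside 4.56% below both among all tested). Of the gut list, 4 of 6 members were tested and all 4 differences lay above 0 (median 0.24): miR-194-5p at 0.67, miR-192-5p at 0.26, miR-375-3p at 0.21 and miR-215-5p at 0.16. The liver list shares miR-192-5p and miR-194-5p with it and had 6 tested members with a median of 0.24. Its main miRNA, miR-122-5p, was at 9.36, 9.60 and 9.13 with DOX, 10.06, 9.71 and 8.08 with IMB, and 8.54 and 8.81 in the controls, so that IMB 3 alone lay below them (difference 0.65, SE 0.45, limma adjusted p = 0.74). The platelet list had 9 tested members and a median of -0.06, the endothelial list 8 and -0.08, and the list of mesenchymal and smooth muscle miRNAs 8 and -0.19. The 9 tested members of the list of miRNAs linked to p53 had a median of 0.11, and the 6 of the miR-15 and miR-16 family a median of -0.20, all 6 below 0. Of the 14 miRNAs listed from the imprinted Dlk1-Dio3 cluster, 3 were tested. The filter was passed through the controls alone by miR-134-5p and miR-434-3p, the group where they were high, and miR-494-3p, detected on all 8 arrays, differed by -0.19. The 3 tested members of the miR-29 family had a median of -0.26, the 5 of the clusters of miR-23, miR-27 and miR-24 a median of 0.04, and the 4 of the miR-125, miR-99 and miR-100 families a median of -0.12. In the miR-191 and miR-425 cluster 1 member was tested, at -0.34. The X-linked list (miR-652, miR-221, miR-222 and miR-223) had 5 tested members with a median of -0.06. The list of plasma miRNAs with miR-340, miR-185 and miR-484 had 6, with a median of -0.11 over the 5 detected on all 8 arrays. The Sfmbt2 cluster had 5, with a median of 0.22 over the 3 detected on all 8 arrays. A median over both drugs can also hide a split between them. DOX minus control and IMB minus control had medians of 0.20 and -0.25 in the miR-23, miR-27 and miR-24 clusters. They were 0.08 and -0.23 in the endothelial list, while in the gut list both were above 0 (0.38 and 0.12). Without scaling the median over all tested miRNAs moved to -0.43, so list medians near 0 have no settled direction.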
